A study of Mus musculus with 2 samples.

Results

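The mitochondrial genome of the mouse is a small circle of DNA present in many copies per cell, and fragments of it have been copied into the nuclear chromosomes over evolution. The genes described here are every gene whose symbol starts with mt- in the GENCODE M21 annotation, which are 13 mRNA, 2 rRNA and 22 tRNA genes, plus 4 nuclear pseudogenes (Gm28661, Gm10925, Gm28437 and Gm10222) chosen by name. They are 41 of 55536 annotated genes. They were measured in total RNA from neutrophils, the granulocytes that are first to reach sites of infection, taken from the peripheral blood of adult C57BL/6J mice aged 5 to 6 weeks. The 2 libraries form a single group without treatment and share 1 donor identifier, so the spread between them may be technical. Each was prepared from 100 ng of RNA using ScriptSeq v2, at a size range of 200 to 1000 (no unit given). Sex was not collected, per the labels. Values are compared between genes, between the deposited tables or between the libraries, since the series has no second condition to test against.

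The libraries held 22646991 expected counts (replicate 1) and 21471673 (replicate 2) in the M21 gene table. An expected count is an estimated number of reads per gene, and TPM divides it by the gene's effective length and scales each library to the same total. All 10 neutrophil markers were detected, with a summed level of 2516 TPM in replicate 1 and 2548 TPM in replicate 2. Markers of B cells (8 of 8 detected, 629 and 573 TPM) and of red cells (6 of 8, 4343 and 4278 TPM) were also present. A few high genes can carry such a sum. The list medians were 70.8 ± 1.24 TPM for neutrophil, 47.8 ± 2.10 TPM for B-cell and 104 ± 6.46 TPM for red-cell markers (SD, n = 2 each). Markers of monocytes (6 of 6 detected, 34.0 and 30.7 TPM), platelets (5 of 8, 24.9 and 25.4 TPM) and T cells (6 of 7, 25.1 and 25.1 TPM) summed to less, and no marker of any list was at 0. The part of these other cells in the mitochondrial RNA was not tested, and in a bulk sample fewer cells of a type and less RNA per cell cannot be told apart.

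Mitochondrial DNA is transcribed from both strands into long precursors. In the classical model of this process, tRNAs lie between most of the mRNAs and rRNAs, and their excision frees the RNAs on either side. The mRNAs encode core subunits of complexes I, III and IV of the respiratory chain and of ATP synthase, the rRNAs build the mitochondrial ribosome, and the tRNAs read its codons. All other subunits of these complexes come from nuclear genes. Mature neutrophils are known for few mitochondria and a metabolism that leans on glycolysis.

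The 4 nuclear copies are unprocessed pseudogenes on the minus strand of chromosome 1 (GRCm38), and each is identical in sequence to nearly the whole of 1 mitochondrial mRNA gene. Gm28661 (ENSMUSG00000102070.1, chr1:24614885-24615565) matched mt-Co2 over 681 nt. Gm10925 (ENSMUSG00000100862.1, chr1:24613974-24614651) matched mt-Atp6 over 678 nt. The next copies follow toward lower coordinates. Gm28437 (ENSMUSG00000101111.1, chr1:24613189-24613971) matched mt-Co3 over 783 nt. Gm10222 (ENSMUSG00000067736.2, chr1:24612407-24612700) matched mt-Nd4l over 294 nt. Every match was 100% identical, and the annotated copies differ from the mitochondrial genes only in lacking the last 3 nt, or the last 1 nt for Gm28437. The ends of the transcripts in the GENCODE M21 annotation are printed because they are the only annotated bases that set each pair apart, with capitals for the bases that the copy lacks. They are the TAA stop codon, and in mt-Co3 the single T of a stop codon that polyadenylation is known to complete.
mt-Co2 end: ttcgaaaactgatctgcttcaataattTAA
Gm28661 end: ttcgaaaactgatctgcttcaataatt
mt-Atp6 end: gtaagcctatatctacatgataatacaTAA
Gm10925 end: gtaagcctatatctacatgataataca
mt-Co3 end: tacgtctccatttattgatgaggatctT
Gm28437 end: tacgtctccatttattgatgaggatct
mt-Nd4l end: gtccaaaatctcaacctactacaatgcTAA
Gm10222 end: gtccaaaatctcaacctactacaatgc

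The copies lie in 1 block that keeps the mitochondrial gene order. A search of all M21 transcripts for matches of 100 nt or more with 95% identity or more found 7 copies between 24611535 and 24616197 on chromosome 1, a span of 4663 nt. In 5 of the 7 copies the offset to the mitochondrial position was the same to the base, and in the other 2 (Gm10222 and Gm28439) it was 1 base away. By position the block corresponds to bases 6381 to 11043 of the mitochondrial genome, which hold 11 whole genes there, among them mt-Atp8 and the tRNA genes mt-Ts1, mt-Td, mt-Tk, mt-Tg and mt-Tr. The other 3 copies of the block were Gm29216 (the end of mt-Co1), Gm28438 (mt-Nd3) and Gm28439 (the first 876 nt of mt-Nd4, identical). Gm28438 and Gm28439 were named after their values were seen.

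Gm29216 and Gm28438 each differ from the mitochondrial gene by 1 base within the aligned part. Over 483 aligned nt Gm29216 carries A1066T, counted from the first base of mt-Co1, and its first 9 nt lie outside the alignment. Compared base by base over all 492 nt, Gm29216 differs from the end of mt-Co1 at 6 positions, and at 1 after the first 9 nt. Over 345 nt Gm28438 carries T3C, counted from the first base of mt-Nd3. Windows around the substitutions A1066T and T3C, with the differing base in capitals, show how little sequence separates the aligned parts of the pairs.
mt-Co1 window: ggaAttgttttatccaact
Gm29216 window: ggaTttgttttatccaact
mt-Nd3 window: atTaacctgtacactgtt
Gm28438 window: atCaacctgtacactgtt

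Genes of the mitochondrial genome took about 1% of all counts. They summed to 256834 (replicate 1) and 226457 (replicate 2) expected counts, or 1.13% (95% exact Clopper-Pearson interval 1.13 to 1.14%) and 1.05% (1.05 to 1.06%) of the totals, with a mean of 1.09 ± 0.0561% (SD, n = 2). The rRNA genes contributed 0.527% and 0.522%, and the mRNA genes 0.607% and 0.532%. The lower share in replicate 2 thus lay in the mRNAs. Most of it lay in mt-Co1, which taken alone held 0.473% in replicate 1 and 0.406% in replicate 2. Not every mRNA was lower, with mt-Atp8 at 0.0107% and 0.0158%. The 4 nuclear copies took a further 52357 and 49619 counts, or 0.231% of the total in both libraries. That was 17.5 ± 0.735% (SD, n = 2) of the counts on all 41 genes. PCR copies are not independent molecules, so these intervals describe counting error alone.

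The large rRNA of the mitochondrial ribosome exceeded the small one. The 16S rRNA gene mt-Rnr2 (ENSMUSG00000064339.1, chrM:1094-2675) held 111795 and 104656 counts in replicates 1 and 2, and the 12S rRNA gene mt-Rnr1 (ENSMUSG00000064337.1, chrM:70-1024) held 7523 and 7502. Per length, mt-Rnr2 stood at 807 and 748 TPM, and mt-Rnr1 at 97.5 and 95.9 TPM. The TPM ratio of mt-Rnr2 over mt-Rnr1 was 8.28 in replicate 1 and 7.80 in replicate 2, with a mean of 8.04 ± 0.339 (SD, n = 2). The count ratio was 14.9 (95% exact conditional binomial interval 14.5 to 15.2) and 14.0 (13.6 to 14.3). By counts mt-Rnr2 ranked 10 in replicate 1 and 12 in replicate 2 among all genes. In both libraries the mt-Rnr2 level was several times that of mt-Rnr1, although both are known to arise from the same precursors. Whether rRNA was removed before the libraries were made is not given in the sources used here, and its part in this ratio was not tested.

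The M21 gene table gave almost all counts of mt-Co2, mt-Atp6, mt-Co3, mt-Nd4l and their identical nuclear copies to the copies. mt-Co2, which encodes the copper-carrying subunit 2 of complex IV, had 0.01 and 0 expected counts in replicates 1 and 2, against 14940 and 14151 for Gm28661. mt-Atp6, the membrane subunit a of ATP synthase, had 0 and 0, against 9827 and 8767 for Gm10925. mt-Co3, subunit 3 of complex IV, had 0.09 and 2.85, against 27057 and 26196 for Gm28437. mt-Nd4l, a small membrane subunit of complex I, had 0 and 0, against 533 and 505 for Gm10222. These 0 values are a split between identical sequences and not a measured absence, and the levels of all 8 genes are uncertain one by one.

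The other estimates in the deposited files divided the same reads differently. The posterior mean count, which the gene table gives beside the expected count, put 4577 and 3272 counts on mt-Co2, with deposited posterior standard deviations of 1310 and 1077. For mt-Co3 it was 9825 and 9125 (posterior SD 2612 and 2114), for mt-Atp6 1261 and 1656 (790 and 955), and for mt-Nd4l 94.0 and 58.0 (98.8 and 50.6). For these 4 genes the posterior SD was between 23.2% and 105% of the count. It was below 0.5 counts for 8 of the 15 mitochondrial mRNA and rRNA genes in replicate 1 and for 7 in replicate 2. The deposited TPM intervals were wide on both sides of a pair, with 93.6 to 249 TPM for mt-Co3 and 191 to 347 TPM for Gm28437 in replicate 1.

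The share of counts given to the mitochondrial gene, out of the gene and its matching copies, depended on the estimate. A further one is the alignment-free table, a transcript table made from the reads without an alignment among its listed parents. For mt-Co2 the share was 30.6% and 23.1% by posterior means in replicates 1 and 2, and 5.43% and 8.72% in the alignment-free table. For mt-Atp6 it was 12.8% and 18.9% by posterior means, and 71.0% and 82.5% in the alignment-free table. Thus mt-Co2 kept less in the alignment-free table and mt-Atp6 kept more. For mt-Co3 it was 36.3% and 34.8% by posterior means, and 20.4% and 13.1% in the alignment-free table. For mt-Nd4l it was 17.6% and 11.5% by posterior means, and 100% and 83.1% in the alignment-free table. No pair kept its split between estimates. mt-Nd3, 1 base apart from Gm28438, kept 100% of the expected counts in both libraries, but 75.2% and 93.0% by posterior means and 65.2% and 100% in the alignment-free table. mt-Nd4 kept all of its expected counts against Gm28439, which is identical over 876 nt and was listed at 0 in both tables. On the older GENCODE M4 models the gene table again gave the pairs to the copies, apart from 446 counts on mt-Atp6 in replicate 1 and 905 on mt-Co3 in replicate 2.

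**Figure D1:**
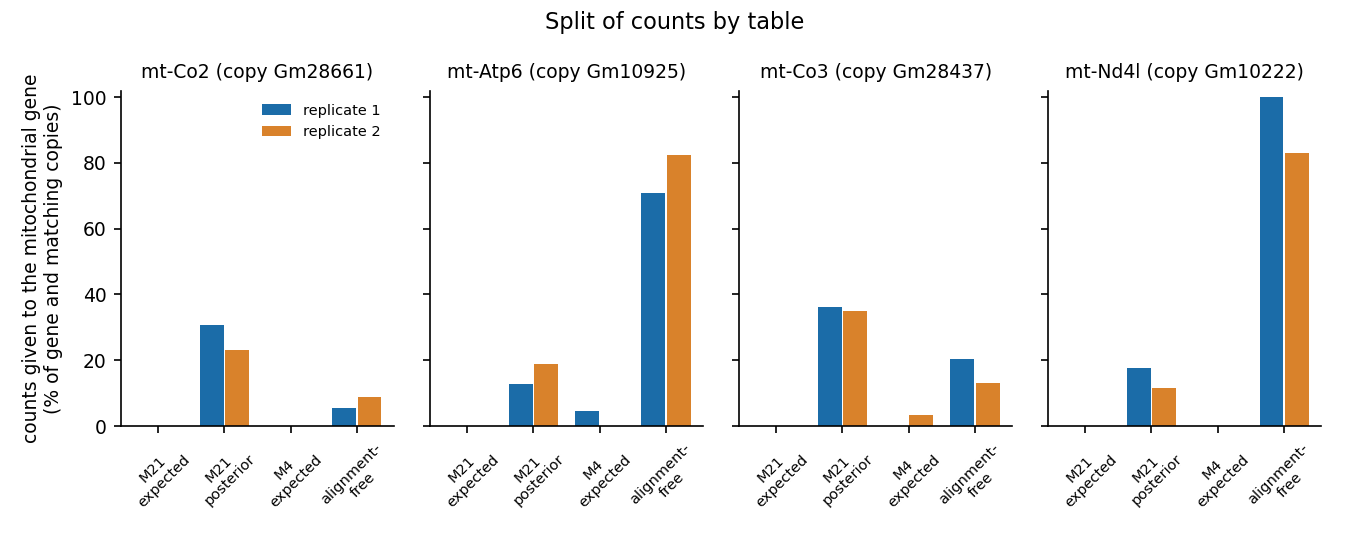
Percent of the counts of 4 mitochondrial genes and their matching nuclear copies that each deposited estimate gave to the mitochondrial gene, by library (bars; blue, replicate 1; orange, replicate 2). The M21 expected counts lie at about 0 in all 4 panels, while the alignment-free estimate for mt-Atp6 is 71.0% and 82.5% and that for mt-Co2 5.43% and 8.72%.

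In the group of mt-Co1 a smaller share of the counts went to Gm29216, which covers the last part of mt-Co1. mt-Co1 (ENSMUSG00000064351.1, chrM:5328-6872), the catalytic subunit 1 of complex IV, held 107057 and 87186 expected counts in replicates 1 and 2, against 6832 and 8929 for Gm29216. By counts mt-Co1 ranked 13 and 14 among all genes. It kept 94.0% and 90.7% of the counts of its group in the M21 gene table, and 98.3% and 95.4% in the alignment-free table. The Gm29216 counts were higher in replicate 2 although those of mt-Co1 were lower. The tables again disagreed on the split, with 2186 and 4970 counts for Gm29216 in the alignment-free table.

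When each mitochondrial gene was added to its matching copies, the 13 mRNAs spanned a wide range of levels. In this combined level the summed counts are placed on the effective length of the mitochondrial gene. It does not depend on how a table split a pair, and a gene taken alone is named as such where it is used. Any reads that came from the copies are included in it, and transcription of the copies was not tested. mt-Co1 was highest, with 845 TPM in replicate 1 and 706 TPM in replicate 2. mt-Atp8, a small membrane subunit of ATP synthase, followed with 485 and 616 TPM, mt-Co3 with 447 and 426 TPM and mt-Co2 with 295 and 274 TPM. mt-Atp6 stood at 195 and 171 TPM and mt-Nd3, a complex I subunit, at 128 and 120 TPM. These 6 levels did not overlap between neighbours in the order.

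The other 7 mRNAs lay lower, and 6 of them encode complex I subunits. mt-Nd1 averaged 93.5 ± 17.0 TPM and mt-Cytb, the mitochondrially encoded subunit of complex III, 59.9 ± 7.48 TPM (SD, n = 2 each). mt-Nd4l averaged 38.6 ± 2.85 TPM and mt-Nd4 35.7 ± 3.87 TPM, and the values of this pair overlapped, so their order is not settled. mt-Nd2 averaged 30.1 ± 1.53 TPM, mt-Nd5 20.2 ± 2.86 TPM and mt-Nd6 12.9 ± 3.14 TPM. All other neighbours in the order were apart in both libraries. In the alignment-free table the combined TPM gave the same ranks from 1 to 13, at 1101 ± 169 TPM for mt-Co1 and 20.8 ± 6.68 TPM for mt-Nd6. There the values of mt-Atp8 (542 and 801 TPM) and mt-Co3 (622 and 580 TPM) overlapped.

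**Figure D2:**
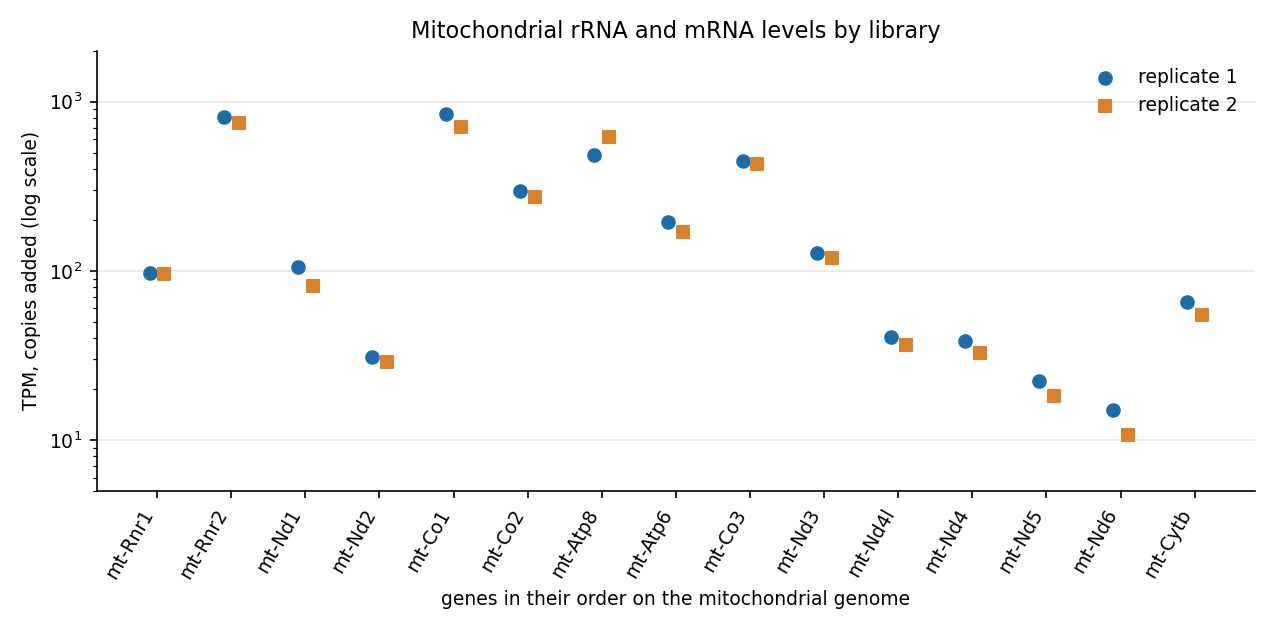
Level in TPM (log scale) of the 2 rRNA and 13 mRNA genes of the mitochondrial genome, in genome order, with the counts of matching nuclear copies added to each mRNA gene; circles are replicate 1 and squares replicate 2. mt-Rnr2 and mt-Co1 stand highest and mt-Nd6 lowest, and mt-Atp8 is the only mRNA with its higher value in replicate 2.

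The ranks of the shortest mRNAs rested on their effective lengths. TPM divides by the length on which a fragment can start, and mt-Atp8 has 204 annotated nt of which 51.1 nt (replicate 1) and 56.1 nt (replicate 2) were effective. By counts per annotated kilobase, a measure added after the values were seen, mt-Atp8 ranked 4 and not 2, and mt-Nd4l (297 nt) ranked 12 and not 9. mt-Co1, mt-Co3 and mt-Co2 then ranked 1, 2 and 3, at 67974 ± 8140, 33964 ± 774 and 21273 ± 821 counts per kilobase (SD, n = 2 each). mt-Atp8 followed at 14267 ± 3386, close to mt-Atp6 at 13652 ± 1101. On this scale the 2 ATP synthase genes differed by less than their spread.

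The genes mt-Atp8 and mt-Atp6 are also known to share 1 bicistronic mRNA, in which the reading frames overlap. The annotated genes overlap by 43 nt, mt-Nd4l and mt-Nd4 by 7 nt, and mt-Nd5 and mt-Nd6 by 14 nt on opposite strands. Reads from an overlap can count for either gene. The shared stretch of mt-Atp8 and mt-Atp6 is shown because it is 21.1% of mt-Atp8, with the start codon of mt-Atp6 and the last 3 bases of mt-Atp8 in capitals.
mt-Atp8 and mt-Atp6 overlap: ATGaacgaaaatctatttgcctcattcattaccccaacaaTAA

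mt-Nd6, the only mRNA gene on the other strand, was the lowest of the 13. It held 522 counts (15.1 TPM) in replicate 1 and 377 counts (10.7 TPM) in replicate 2, against a median combined level of 117 and 101 TPM over the 12 remaining mRNA genes. It thus lay 7.74-fold and 9.45-fold below that median. With each gene taken alone, log2(TPM + 1) of mt-Nd6 minus the median of the other 12 was -1.30 ± 0.22 (SD, n = 2), a smaller gap because the 4 mRNA genes at about 0 pull that median down. The sources used here do not say whether counting used strand, so reads of mt-Nd6 and antisense RNA of the opposite strand cannot be told apart.

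Complex IV took most of the mitochondrial mRNA counts. Its 3 genes held 79.1 ± 0.214% of the combined mRNA counts, the 7 complex I genes 11.2 ± 0.281%, the 2 ATP synthase genes 6.63 ± 0.574% and mt-Cytb of complex III 3.11 ± 0.0788% (SD, n = 2 each). The order of these shares was the same in both libraries. These are shares of counts and not of molecules, because longer mRNAs give more reads.

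With copies added, the medians of mitochondrial subunits stood above those of the listed nuclear subunits of the same complex. Copies were added on the mitochondrial side only, and each nuclear subunit is a single entry. Taken alone, mt-Co2, mt-Co3 and mt-Atp6 stood at about 0 TPM in the M21 gene table. In complex I the median combined level was 35.7 ± 3.87 TPM, against 5.59 ± 0.205 TPM over 30 nuclear subunits. In complex III mt-Cytb stood at 59.9 ± 7.48 TPM, against 4.57 ± 0.488 TPM over 9. In complex IV the medians were 437 ± 14.9 TPM and 10.5 ± 1.22 TPM over 10 nuclear subunits, and in ATP synthase 367 ± 37.8 TPM and 6.23 ± 0.417 TPM over 14 (SD, n = 2 each). The ATP synthase value is the midpoint of 2 genes, mt-Atp6 at 183 ± 17.1 TPM and mt-Atp8 at 551 ± 92.6 TPM. The mt-Atp8 level rests on its short effective length. The mitochondrial and nuclear medians were also compared as log2(TPM + 1), where the added 1 narrows the gap. The differences were 2.47 ± 0.11 for complex I, 3.45 ± 0.05 for complex III, 5.26 ± 0.20 for complex IV and 5.67 ± 0.23 for ATP synthase. Each was more than 10 times the spread between the libraries, which does not cover the spread among genes.

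The listed nuclear partners rarely reached the combined level of the mitochondrial mRNAs of their own complex. The lists need not hold every nuclear subunit. No listed nuclear subunit of complexes III or IV or of ATP synthase exceeded the lowest combined mitochondrial level of its complex in either library. In complex I none did so in replicate 1 and 3 of 30 did in replicate 2, where mt-Nd6 stood at 10.7 TPM. The highest nuclear subunits were Atp5b, the catalytic beta subunit of ATP synthase, at 50.5 and 41.7 TPM, Uqcrh of complex III at 21.5 and 22.6 TPM, Cox6b1 of complex IV at 16.3 and 19.6 TPM and Ndufa3 of complex I at 14.7 and 13.9 TPM. Other high members were the ATP synthase subunits Atp5h (22.7 ± 1.59 TPM) and Atp5e (19.2 ± 1.85 TPM), Uqcrb (8.47 ± 0.764 TPM) and Uqcrc1 (7.96 ± 1.26 TPM) of complex III, Cox8a (17.8 ± 1.23 TPM) and Cox6c (16.2 ± 0.643 TPM) of complex IV, and Ndufa7 (12.2 ± 0.580 TPM) of complex I (SD, n = 2 each). The lowest were Ndufc1 (1.12 ± 0.537 TPM), Uqcrq (1.28 ± 0.163 TPM) and Cox5a (2.78 ± 0.0849 TPM, SD, n = 2 each), while Atp5o was listed at 0 in both libraries. Where a symbol has more than 1 annotated entry, only the first was read, so the 0 of Atp5o is not taken as absence. Of the 63 listed nuclear subunits, 60 were detected (TPM of 1 or more in each library), beside 34.9% of all protein-coding genes. In sum the combined levels of the 13 mitochondrial mRNAs reached 2713 and 2576 TPM, and the 63 listed nuclear subunits 509 and 504 TPM.

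**Figure D3:**
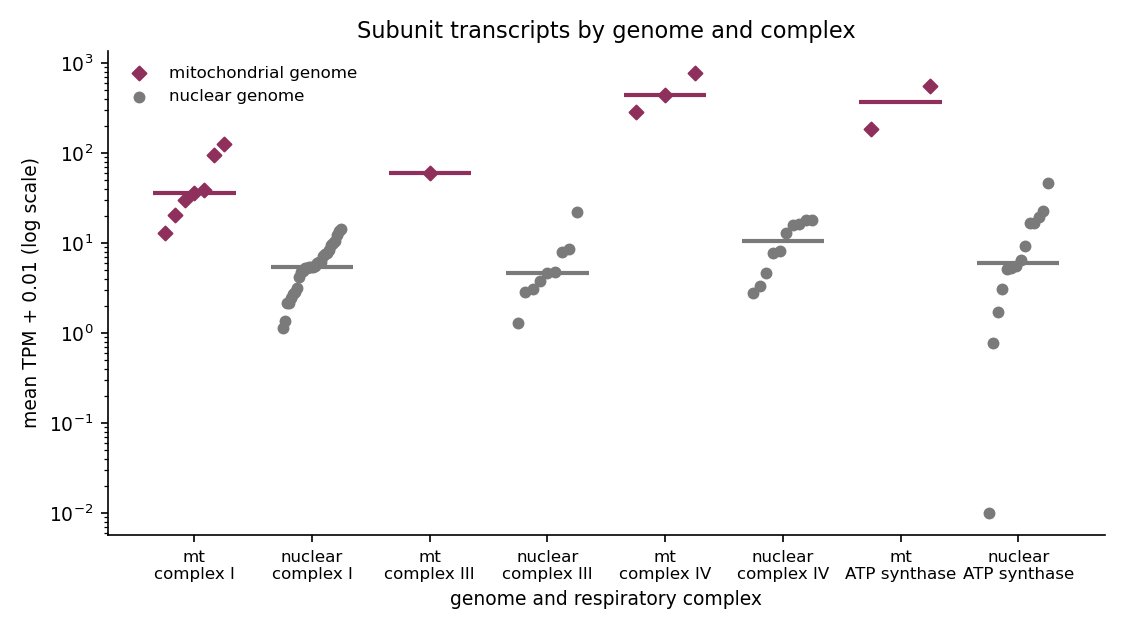
Mean TPM of the 2 libraries, plus 0.01 (log scale), of respiratory subunits by complex, with medians as horizontal lines. Diamonds are subunits encoded by the mitochondrial genome (copies added), and circles are listed subunits encoded by the nucleus (single entries). Mitochondrial medians of 35.7, 59.9, 437 and 367 TPM stand above nuclear medians of 5.59, 4.57, 10.5 and 6.23 TPM for complexes I, III and IV and ATP synthase; the nuclear point at the bottom is Atp5o, listed at 0.

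Without the copies, the median level of the 13 mRNA genes was lower. As log2(TPM + 1) it was 4.95 ± 0.07, which is 2.17 ± 0.04 above the median of the 63 listed nuclear subunits (SD, n = 2 each). The combined median of 93.5 ± 17.0 TPM compares with 4.29 ± 0.191 TPM over 7673 detected nuclear protein-coding genes. By counts, mitochondrial mRNA genes alone held 1.18% and 1.11% of all reads on protein-coding genes in replicates 1 and 2.

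Nuclear genes that replicate, transcribe and process mitochondrial nucleic acids were present at low levels. Of 17 genes of mitochondrial DNA replication and transcription, 11 were detected, and the median was 1.91 ± 0.0424 TPM. Polg, the catalytic subunit of the mitochondrial DNA polymerase, was highest at 11.4 ± 0.976 TPM, followed by the packaging and transcription factor Tfam at 7.32 ± 0.707 TPM and the accessory polymerase subunit Polg2 at 7.18 ± 0.0566 TPM. The transcription elongation factor Tefm was lowest at 0.320 TPM in both libraries (SD, n = 2 for each mean). For comparison, 34.9% of all protein-coding genes were detected.

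Genes of mitochondrial RNA processing and of the mitochondrial ribosome lay in the same range. Of 23 measured genes of RNA processing and decay, 16 were detected, and the median was 1.67 ± 0.127 TPM. The RNA-granule protein Grsf1 (5.03 ± 1.42 TPM), the oligoribonuclease Rexo2 (4.02 ± 0.262 TPM) and the poly(A) polymerase Mtpap (3.55 ± 0.0707 TPM) were highest, and the rRNA methyltransferase Mrm2 was lowest (0.390 ± 0.0707 TPM). Of 28 mitoribosomal protein genes 24 were detected, at a median of 2.38 ± 0.276 TPM, led by Mrps9, Mrps15 and Mrpl9 (5.00, 4.88 and 3.45 TPM), and Mrps6 was lowest (0.655 ± 0.361 TPM). The 2 mitochondrial rRNAs thus stood far above the mRNAs of the ribosomal proteins, in TPM, which gives no measure of the proteins themselves. Of 9 regulators of mitochondrial biogenesis 6 were detected, with Nrf1 (8.21 ± 0.552 TPM), Tfam and Gabpa (5.77 ± 0.856 TPM) highest, while the coactivator Ppargc1a stood at 0.190 ± 0.0707 TPM (SD, n = 2 throughout).

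Between the libraries, the members moved by less than 2-fold in the M21 gene table. With at least 50 counts in the higher library, 15 members could be compared, and the 22 tRNA genes and the 4 mRNA genes with an identical copy could not. Of the 15, 0 reached a 2-fold difference in CPM (counts scaled to the library total), beside 2.67% of 11981 genes (1.41% higher and 1.26% lower in replicate 2). The median log2 of replicate 2 over replicate 1 was -0.02 over these members and -0.02 over all such genes with counts in both libraries, of which the middle part between the quartiles ran from -0.15 to 0.12. No test between the libraries was possible, and a count of 0 here is by fold alone.

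Counting error was smaller than several of these small differences. Ratios of replicate 2 over replicate 1 ran from 0.762 (mt-Nd6) to 1.48 (mt-Atp8), and for 8 of the 15 members the 95% exact conditional binomial interval lay below 1, beside 23.4% of the 11981 genes. It lay above 1 for 3 members, beside 17.6%, and across it for 4. These intervals narrow with depth, and every one of the 15 members had more than 500 counts in the higher library. mt-Co1 alone was lower in replicate 2, at a ratio of 0.859 (0.851 to 0.867), and at 0.890 (0.882 to 0.898) with its copies added. Lower as well were mt-Nd1 at 0.826 (0.799 to 0.853), mt-Nd5 at 0.871 (0.829 to 0.914) and mt-Cytb at 0.894 (0.862 to 0.928). mt-Rnr2 stood close to 1, at 0.987 (0.979 to 0.996), and mt-Rnr1 stood at 1.05 (1.02 to 1.09). With copies added, 10 of the 13 mRNAs were lower in replicate 2, beside 54.1% of all genes, with a median of -0.09 on the log2 scale. Of the 13, 7 lay below the median of all genes. The 3 that were higher were mt-Co3, mt-Nd3 and mt-Atp8. mt-Atp8 had the highest ratio, with 3399 counts in replicate 2 and 2422 in replicate 1, or 1.48 (1.40 to 1.56).

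**Figure D4:**
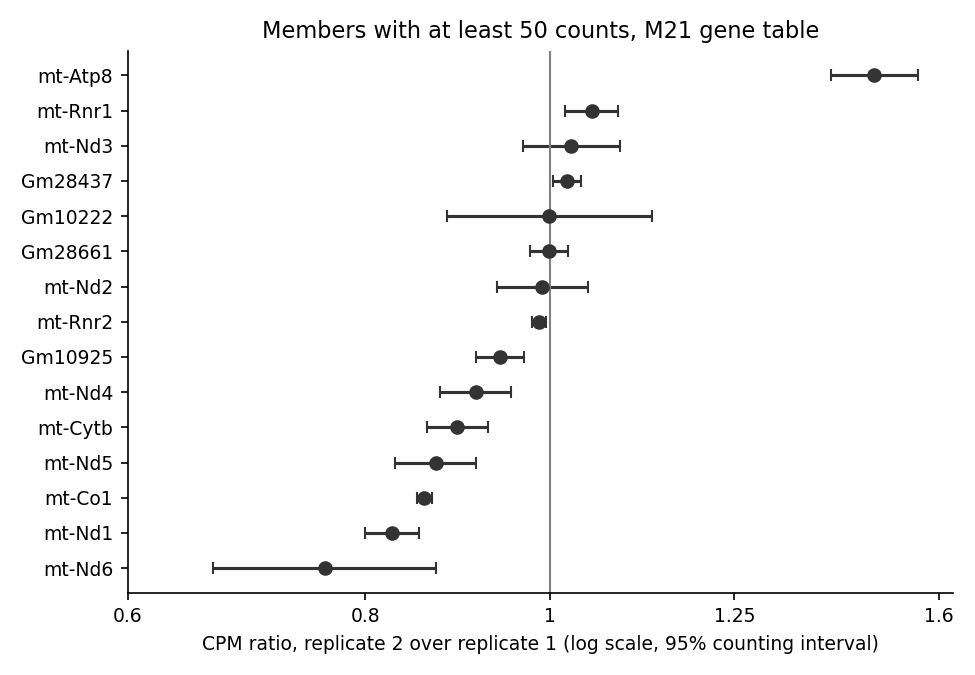
Ratio of CPM in replicate 2 over replicate 1 (log scale) for the 15 members with at least 50 counts in the M21 gene table; points are ratios and bars 95% exact conditional binomial intervals, which cover counting error only. mt-Nd6 lies lowest at 0.762 and mt-Atp8 highest at 1.48, while mt-Nd2, mt-Nd3, Gm10222 and Gm28661 span 1.

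Fragment lengths moved with the library. The difference between annotated and effective length of mt-Rnr2 gives a mean fragment of 166 nt (replicate 1) and 160 nt (replicate 2). mt-Atp8, the member with the highest ratio, is the shortest mitochondrial mRNA gene. The part of fragment length in the differences between the libraries was not tested.

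The mitochondrial tRNA genes could be read only in the alignment-free table. They are 59 to 75 nt long, and the M21 gene table gives all 22 an effective length of 0 and no counts in either library, so their 0 there is no measurement of absence. The alignment-free table, with effective lengths of 10.1 to 13.8 nt, gave them 651 estimated counts in replicate 1 and 3231 in replicate 2. At least 10 counts were found for 9 tRNA genes in replicate 1 and for 12 in replicate 2, and mt-Ts2, a serine tRNA, had 0 in both. The size range of 200 to 1000, if in nt, lies above the length of a mature tRNA. In that unit it also lies above the mean fragments of 166 nt (replicate 1) and 160 nt (replicate 2). How the range relates to the sequenced fragments was not tested. Whether it kept mature tRNAs out was not tested. Whether these reads came from mature tRNAs or from longer precursors was not tested.

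A few tRNA genes held most of the tRNA counts. mt-Tg, the glycine tRNA between mt-Co3 and mt-Nd3, had 145 and 2202 estimated counts in replicates 1 and 2. mt-Th, the histidine tRNA, had 88 and 295, mt-Tw, the tryptophan tRNA, 143 and 209, and mt-Tv, the valine tRNA between the rRNA genes, 105 and 167. mt-Tn, the asparagine tRNA on the minus strand, had 12 and 87. The other tRNA genes had at most 60 counts, and the 14 plus-strand genes together held 565 and 3033 counts against 86 and 198 for the 8 minus-strand genes. The order was not the same in both libraries, since mt-Tv exceeded mt-Th in replicate 1. The sequences of the 3 tRNA genes with the most counts over both libraries, from the GENCODE M21 transcripts, show how short the target is for a read.
mt-Tg: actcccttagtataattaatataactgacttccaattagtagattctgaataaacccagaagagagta
mt-Th: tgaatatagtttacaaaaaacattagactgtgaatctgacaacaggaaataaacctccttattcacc
mt-Tw: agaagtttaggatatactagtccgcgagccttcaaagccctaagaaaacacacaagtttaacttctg

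The tRNA genes had more counts in replicate 2, and mt-Tg most of all. The ratio of summed tRNA CPM in replicate 2 over replicate 1 was 5.31 (95% exact conditional binomial interval 4.88 to 5.78), and 2.17 (1.95 to 2.42) without mt-Tg. mt-Tg alone had a ratio of 16.2 (13.7 to 19.3) and took 68.2% of the tRNA counts in replicate 2 and 22.3% in replicate 1. Ratios were 7.75 (4.22 to 15.6) for mt-Tn and 3.58 (2.82 to 4.60) for mt-Th. With copies added the neighbours of mt-Tg did not move with it, at 1.02 (1.00 to 1.04) for mt-Co3 and 1.03 (0.968 to 1.09) for mt-Nd3 in the M21 gene table. Without any filter, 19 of the 22 tRNA genes had a higher CPM in replicate 2, 2 had a lower one and mt-Ts2 was at 0 in both, many of them on a few counts.

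Of 234 other genes of 59 to 75 nt with any count, 131 had a higher CPM in replicate 2 and 103 a lower one. With at least 10 counts in either library, 56 of 84 such genes were higher in replicate 2. Their median log2 ratio was 0.748 (0.5 counts added). All 12 tRNA genes at that minimum were higher, at a median of 0.984. Genes that reached this minimum in replicate 2 alone have a fixed direction, so no general rise is read from the filtered counts. At a fold of at least 2 and at least 50 counts, 5 of 26 members were higher in replicate 2 in the alignment-free table (mt-Tg, mt-Th, mt-Tk, mt-Tn and Gm10222), beside 1.96% of 15352 genes, and 0 were lower, beside 1.86%. Only mt-Tg and mt-Th reached 50 counts in both libraries. mt-Tk, mt-Tn and Gm10222 passed the minimum through replicate 2 alone, which fixes their direction, so nothing is read from the count of 5. Gm10222 had 104 counts in replicate 2 and 0 in replicate 1, but together with the identical mt-Nd4l it had 614 in replicate 2 and 661 in replicate 1. The shorter fragments of replicate 2 run in parallel with these counts, and their part was not tested.

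**Figure D5:**
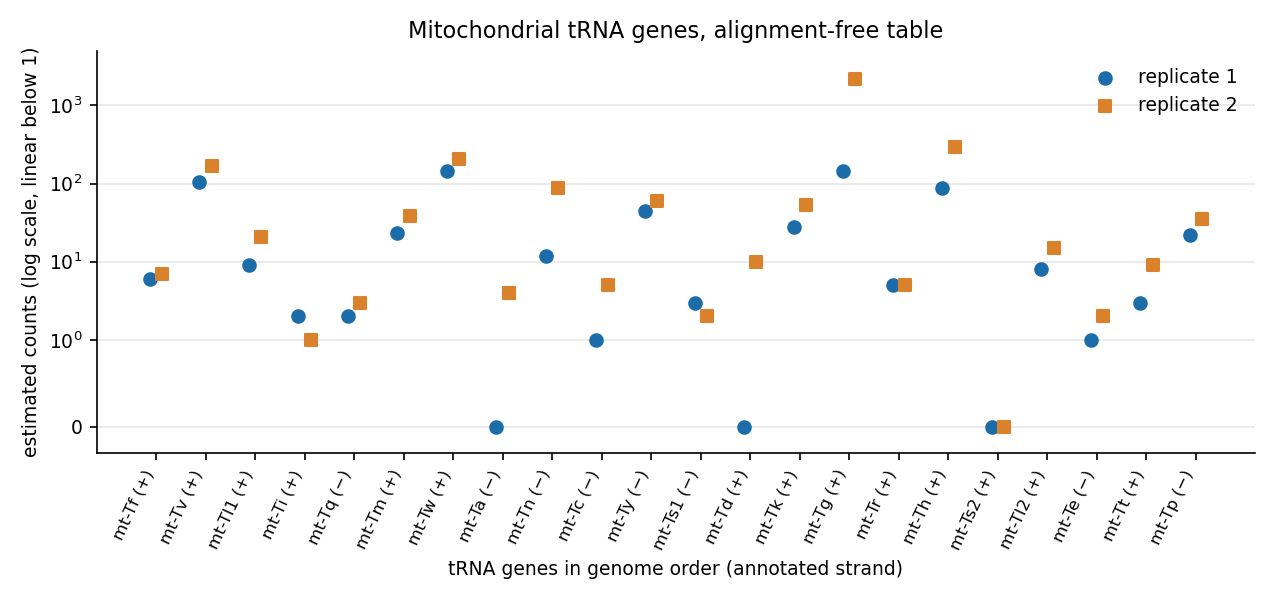
Estimated counts of the 22 mitochondrial tRNA genes in the alignment-free table (log scale, linear below 1), in genome order with the annotated strand, for replicate 1 (circles) and replicate 2 (squares). mt-Tg stands apart with 145 counts in replicate 1 and 2202 in replicate 2, and mt-Ts2 is at 0 in both.

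The tables differed on the members that share their sequence with a copy. Set against the alignment-free table, the M21 gene table was at least 2-fold higher in both libraries for 2 of 23 members with at least 50 counts (Gm10222 and Gm10925), beside 0.709% of 14096 genes. It was at least 2-fold lower in both libraries for 8 (mt-Co2, mt-Atp6, mt-Co3, mt-Nd4l, mt-Tg, mt-Th, mt-Tv and mt-Tw), beside 15.8%, and 16.5% of all genes differed in either direction. The 4 tRNA genes among the 8 have no effective length in the M21 gene table, so that their place there was fixed by its construction and is no result. Once genes were taken with their copies, the CPM ratio of the M21 gene table over the alignment-free table lay between 0.956 and 1.17 in replicate 1 and between 0.916 and 1.14 in replicate 2 for all 15 mRNA and rRNA genes. Against the M4 gene table, 0 of 15 members differed by 2-fold in both libraries, beside 2.41% of 10720 genes (1.83% higher and 0.578% lower in the M21 gene table).

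Detection followed the same line. With a TPM of 1 or more required in each library, 15 of the 41 members were detected in the M21 gene table, beside 15.7% of all genes. They were 9 mRNA genes, both rRNA genes and the 4 nuclear copies. By the alignment-free estimates the number was 37, beside 21.7% of all genes, with all 13 mRNA genes, both rRNA genes, 19 tRNA genes and 3 copies. The 4 mRNA genes missing from the first count are those with an identical nuclear copy. For the tRNA genes this threshold is a lenient one, since their 651 and 3231 counts amounted to 724 and 3312 TPM on such short effective lengths.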

How the data were processed

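The M21 and M4 gene tables hold an expected count and a TPM per gene, per the file headers, and were made by the authors from transcriptome alignments on mm10, per the list of deposited files. For each transcript the alignment-free table holds a TPM and an estimated count, per the file headers, with no alignment among its listed parents. The sources used here do not name the programs. Posterior means, their standard deviations and interval bounds are as deposited. Main values come from the M21 gene table.

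From these values, shares with Clopper-Pearson intervals, CPM ratios with conditional binomial intervals and medians of log2(TPM + 1) were computed in Python 3.11.15 (numpy 2.4.6, pandas 2.3.3, scipy 1.17.1, matplotlib 3.10.9). Expected counts were rounded before intervals and scaling factors were taken (R 4.3.3, TMM from edgeR 4.0.16, size factors from DESeq2 1.42.0). Every member has 1 transcript. Entries that name no gene (26345, with 1.63e-04% and 2.16e-04% of the counts in replicates 1 and 2) stayed out. A count of 0 allows up to 3 counts, which is 0.132 and 0.140 CPM. Sequences and coordinates came from the GENCODE M21 transcripts and annotation (GRCm38), matched with BLAST+ 2.17.0. The step that counts fold differences was tested on simulated data. Detection required a TPM of 1 or more in each library, and folds needed 50 counts in the higher library. From each list of mitochondrial function the 3 highest and the lowest member are named. The rule asked the same of the marker lists, which are given by sums or medians only. An item that meets the rule is not reported here. Of genes outside the members only those that match a mitochondrial gene and hold at least 50 counts are named, with exceptions marked. Members, lists and tests were chosen with earlier results of these data known. The libraries were averaged as 2 replicates of 1 group, and alternatives were other tables, scalings, pseudocounts, filters, sums with the copies and leaving out a library.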

Additional observations from a re-analysis of the deposited data

How the results depend on the processing

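The share of counts on mitochondrial genes (1.09%) was 1.35% with snRNA and misc RNA left out of the total, 1.33% with the 4 copies added and 1.16% by posterior means, and the share on the copies (17.5%) was 12.5% in the alignment-free table and 12.4% by posterior means. The median mRNA level (4.95) was 6.39 in the alignment-free table, 8.43 after rescaling TPM to protein-coding genes, and 6.55 with copies summed. The difference from nuclear subunits (2.17) was 2.87 in the alignment-free table, 2.33 with a pseudocount of 0.1 or rescaled TPM, 3.77 with copies summed and 3.11 with genes under a TPM of 1 left out. For mt-Nd6 (-1.30) the values were -2.08 in the alignment-free table and -2.98 with copies summed. The median difference between the libraries (-0.02) turned to 0.12 in the alignment-free table, where tRNA genes enter it, and to 0.0022 with TMM factors, where the median of all genes was 0.0020. Members that differed from the alignment-free table numbered 10, and 4 with copies summed. The M4 count of 0 became 1 with either library alone (mt-Atp6 in replicate 1, mt-Co3 in replicate 2). Members detected were 15, and 37 in the alignment-free table. Ranks by counts per kilobase, added after the values were seen, were 4 for mt-Atp8 and 12 for mt-Nd4l. Other settings left each result within its spread, and each count within 1.5 times. With 2 libraries, leaving out 1 of them always falls within the spread of an averaged value, so that setting adds no support.

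Leaving out each library in turn gave 1.05 to 1.13% for the share, 16.9 to 18.0% for the copies, 4.90 to 5.01 for the median, 2.15 to 2.20 for the difference, 2.96 to 3.05 for the log2 rRNA ratio, -1.45 to -1.14 for mt-Nd6, 10 to 13 members between tables, 1 for M4 and 15 detected. It gives no value between the libraries, which needs both. No paired analysis was possible because the series holds a single group. Depth limits the tRNA genes, most of which had fewer than 50 counts.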
